A study of Mus musculus with 3 samples.

Results

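The limb ectoderm is the epithelial sheet that covers the limb bud, a minor lineage beside the mesenchyme that makes up most of the tissue. It was followed here through 10 genes out of 22380 protein-coding genes of the mouse annotation. They are the transcription factor genes Trp63, Grhl2, Grhl3 and Sp8, the basal keratins Krt5 and Krt14, the keratins of simple epithelia Krt8 and Krt18, and the adhesion genes Cdh1 and Epcam. For each gene, every deposited RNAP2 and Med12 peak was taken that overlaps the gene span or lies within 100 kb of its start (mm9, GENCODE vM1). These windows hold 15 of the 20479 peaks of the RNAP2 list and 7 of the 10634 peaks of the Med12 list. Of the 10 genes, 0 have a peak of either list at an annotated start, where 42.2% of all coding genes have RNAP2 and 9.37% Med12. At sites away from starts, 7 have an RNAP2 peak and 7 a Med12 peak, beside 40.7% and 34.9% of coding genes. In these counts Krt8 and Krt18 share the same peaks, and some of the peaks lie nearer to other genes.

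The binding of RNA polymerase II (RNAP2) and of Med12, a subunit of the Mediator complex, was mapped by ChIP-seq in the distal part of wild-type mouse forelimbs at E12.5. There is 1 library for each antibody and 1 input library, whose signal was not analysed here. The limbs were cut from the embryo, dissociated with collagenase and fixed, and the methods name no step that removed the ectoderm or sorted cells, so that the chromatin comes from all cell types of the distal limb. In such a mixture, few ectodermal cells and little binding in each of them cannot be told apart. A peak carries the score of the MACS peak caller, the −log10 of its p-value multiplied by 10. Scores were ranked within a list and not compared between the lists. The lowest score in either list is 40, and weaker enrichment is not recorded, so that the lack of a peak means that none was listed above that score. Without replicates there is no error for a single peak and no test, and the counts are given beside the same share over all protein-coding genes.

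Trp63 encodes p63, the master regulator of stratified epithelia, and the grainyhead-like factors Grhl2 and Grhl3 maintain epithelial junctions and barriers. The surface ectoderm of the embryo first makes Krt8 and Krt18, the keratin pair of simple epithelia, and takes up Krt5 and Krt14 as its basal layer is committed to stratification. At the tip of the limb bud the ectoderm forms the apical ridge, which secretes FGFs and Wnts to the mesenchyme beneath it, and the zinc-finger factor Sp8 is needed for that ridge. RNAP2 at a start is the usual mark of a gene that is transcribed or held ready in part of the cells. Mediator joins such starts to distal enhancers, where RNAP2 can be caught as well.

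RNAP2 was not found at the start of any of these genes. The 10 genes have 19 distinct annotated starts, and 0 of them have an RNAP2 or a Med12 peak within 1 kb, where 42.2% of all protein-coding genes have an RNAP2 peak and 9.37% a Med12 peak. Extended to the gene bodies, an RNAP2 peak overlaps 2 of the 10 genes (Grhl3 and Sp8), against 45.2% of coding genes, and a Med12 peak overlaps 3 (Trp63, Grhl2 and Grhl3), against 16.6%. Distal sites were counted apart. A distal peak is one that lies more than 1 kb from every annotated start of any gene. Of the 10 genes, 7 have a distal RNAP2 peak in their window, against 40.7% of coding genes, and 7 have a distal Med12 peak, against 34.9%. At 2 genes, Epcam and Grhl3, a distal RNAP2 peak overlaps a Med12 peak, which is the case for 12.7% of coding genes. Of the 11 distal RNAP2 peaks, 8 have an annotated start of one of the 10 genes as the nearest start (Epcam, Grhl2, Grhl3 and Sp8), and of the 6 distal Med12 peaks 3 do (Epcam, Grhl2 and Grhl3). The distal peaks of Krt8, Krt18 and Cdh1, and the Med12 peak of Trp63, are nearer to the start of another gene. With 10 genes in all, these shares rest on few items. The counts of genes also depend on the window, since with 50 kb in place of 100 kb on each side 4 genes have a distal RNAP2 peak, against 27.2% of coding genes, and 4 a distal Med12 peak, against 21.8%.

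**Figure D1:**
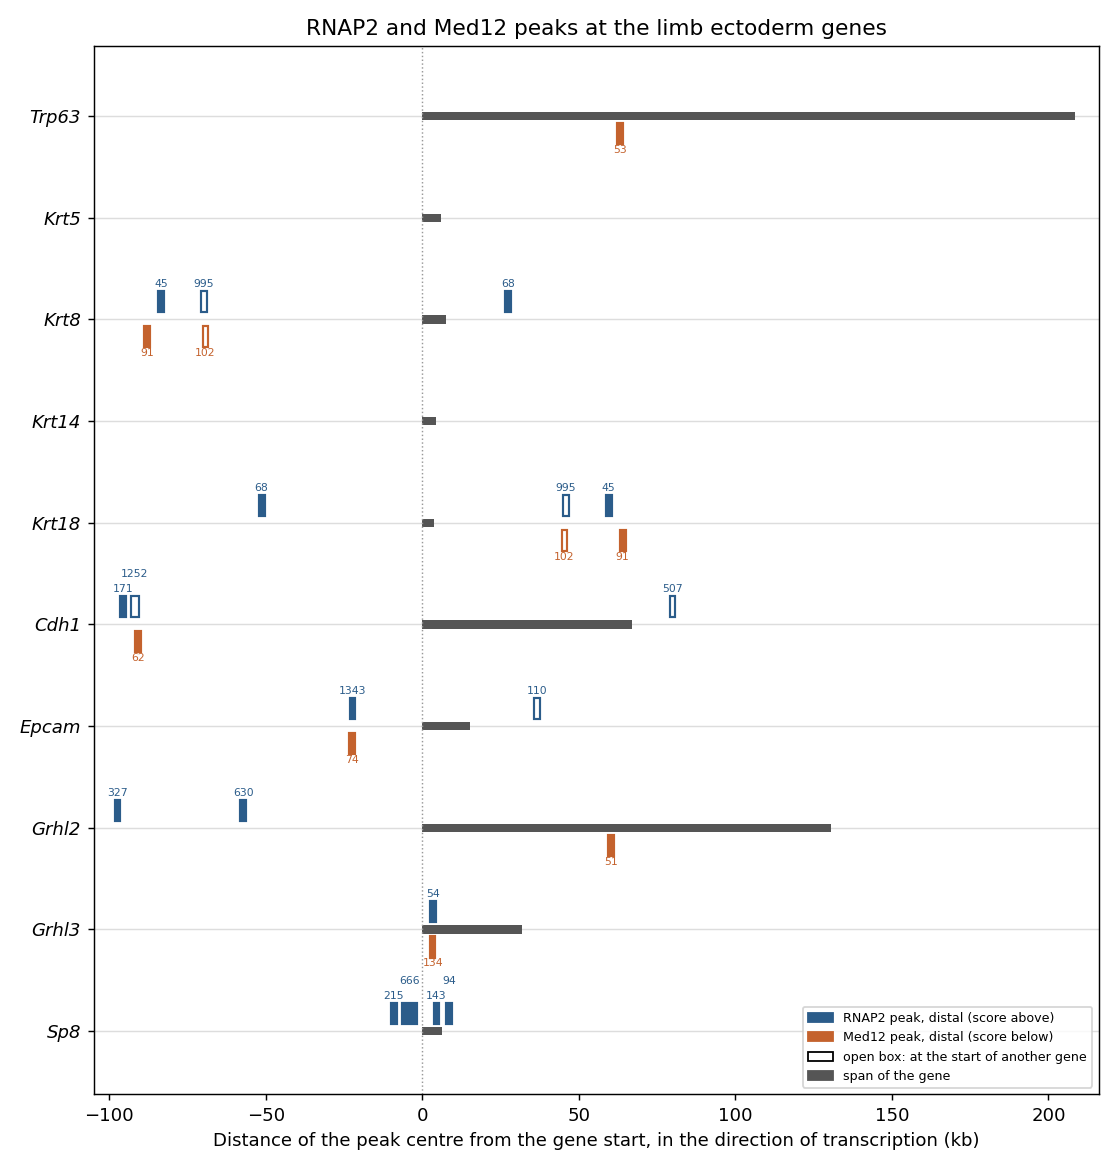
Position of each RNAP2 and Med12 peak relative to the start of each of the 10 genes, in kb along the gene (x axis), with 1 row per gene and the gene span drawn as a bar. Peaks are boxes at their position, drawn at least 1.8 kb wide so that they can be seen, with scores beside them, and open boxes lie at the start of another gene. No box lies on a start, Krt5 and Krt14 have no box, and the 4 RNAP2 peaks of Sp8 sit close to the gene.

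Among the transcription factor genes, Trp63 has 1 peak, in the Med12 list. The gene spans chr16:25683849-25892188 and is read from the upstream starts at 25683849 and 25683851, and from an internal start at 25802002, from which the shorter ΔN transcripts begin that prevail in basal epithelium. The Med12 peak, from 25746611 to 25747522, has a score of 53.4 and lies in an intron between the upstream and the internal starts, 62.8 kb downstream of the former and 54480 bp upstream of the latter. The nearest annotated start, 43777 bp away, is that of a U6 small nuclear RNA gene. That score is modest, and 56.3% of the Med12 list scores as high or higher. RNAP2 is missing from the whole window, and the nearest RNAP2 peak to the gene start lies 217 kb away, a distance that 13.4% of coding genes equal or exceed. The gene sits in a stretch of 488 kb without an RNAP2 peak. The sequence at the centre of the Med12 peak is shown with that before the internal start, as the site with a peak and the start without one. All sequences were read from the mm9 genome and run 5′ to 3′ on the strand given. In all sequences from peaks, capitals mark matches to 4 motifs that are described further on (there is no match in the Trp63 peak), and in sequences before starts they mark CG.
Trp63, centre of the intronic Med12 peak, chr16:25746917-25747216 (+ strand): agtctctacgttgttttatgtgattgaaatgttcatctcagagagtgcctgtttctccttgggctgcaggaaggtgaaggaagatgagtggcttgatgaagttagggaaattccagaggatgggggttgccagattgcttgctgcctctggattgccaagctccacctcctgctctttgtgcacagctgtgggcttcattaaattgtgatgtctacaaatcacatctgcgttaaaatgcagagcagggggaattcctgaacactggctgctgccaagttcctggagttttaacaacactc
Trp63, 250 bases before the internal start, chr16:25801752-25802001 (+ strand): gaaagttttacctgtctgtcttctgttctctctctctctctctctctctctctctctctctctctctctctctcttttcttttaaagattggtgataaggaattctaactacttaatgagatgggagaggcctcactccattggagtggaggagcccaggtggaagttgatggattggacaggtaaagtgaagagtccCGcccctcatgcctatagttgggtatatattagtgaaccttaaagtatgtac

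Grhl3 has the site with the highest Med12 score of all 10 genes. A Med12 peak with a score of 134 runs from 135125729 to 135126735 on chromosome 4, in an intron of Grhl3 (chr4:135097803-135129545, minus strand), and its edge lies 2810 bp downstream of the start. It ranks 1175 in the Med12 list, in which 11.0% of peaks score as high. An RNAP2 peak, from 135125628 to 135126779, covers the same site, and its score of 53.6 is one that 82.0% of the RNAP2 list reaches. The start of Grhl3 itself has no peak, and with the start interval widened to 5 kb on each side both peaks count as peaks at the start. The 300 bases at the centre of the overlap are shown because no other distal peak centre of these genes holds as many SP/KLF letters (GGGCGG, or CCGCCC on the strand printed). They hold 4 matches, which do not overlap each other, and 21 CpG.
Grhl3, centre of the RNAP2 and Med12 overlap, chr4:135126083-135126382 (+ strand): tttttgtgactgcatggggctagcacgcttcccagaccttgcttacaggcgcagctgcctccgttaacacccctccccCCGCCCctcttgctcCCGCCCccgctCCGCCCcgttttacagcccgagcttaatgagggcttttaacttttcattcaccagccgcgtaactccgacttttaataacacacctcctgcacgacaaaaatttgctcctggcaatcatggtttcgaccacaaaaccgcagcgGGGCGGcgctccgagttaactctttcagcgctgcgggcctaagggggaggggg

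Grhl2 (chr15:37162791-37293324) has 2 RNAP2 peaks, both intergenic and upstream, and 1 Med12 peak in an intron. The RNAP2 peaks are centred 57.2 kb and 97.3 kb before the gene start, with scores of 630 and 327, and neither overlaps a Med12 peak. No annotated start of any gene is nearer to them than that of Grhl2. The Med12 peak, 60.3 kb downstream of the start, has a score of 51.1, which 61.6% of the list reaches. Beyond the window, the nearest Med12 peak with a score of at least 100 lies 179036 bp upstream and scores 522. No RNAP2 peak was listed from the nearer upstream peak across the whole gene and beyond it, a stretch of 467 kb. The sequences at the 2 RNAP2 peaks are unlike each other. The farther one holds 25 CpG, with 2 AP-2 matches and 1 SP/KLF match in capitals, while the nearer one, which has no match, is built of a repeated unit. Shifted by 68 bases, the nearer sequence matches itself at 60.3% of positions, a value that 1.04% of all distal RNAP2 peak centres reach and that compares with a median of 33.5%. The part of this repeat in the peak was not tested.
Grhl2, centre of the RNAP2 peak 97.3 kb upstream, chr15:37065336-37065635 (+ strand): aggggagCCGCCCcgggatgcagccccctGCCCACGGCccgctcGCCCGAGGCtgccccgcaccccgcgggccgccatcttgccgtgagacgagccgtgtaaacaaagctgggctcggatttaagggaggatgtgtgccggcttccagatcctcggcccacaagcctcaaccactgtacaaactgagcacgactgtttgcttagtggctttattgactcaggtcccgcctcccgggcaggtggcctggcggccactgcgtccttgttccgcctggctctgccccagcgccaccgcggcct
Grhl2, centre of the RNAP2 peak 57.2 kb upstream, chr15:37105407-37105706 (+ strand): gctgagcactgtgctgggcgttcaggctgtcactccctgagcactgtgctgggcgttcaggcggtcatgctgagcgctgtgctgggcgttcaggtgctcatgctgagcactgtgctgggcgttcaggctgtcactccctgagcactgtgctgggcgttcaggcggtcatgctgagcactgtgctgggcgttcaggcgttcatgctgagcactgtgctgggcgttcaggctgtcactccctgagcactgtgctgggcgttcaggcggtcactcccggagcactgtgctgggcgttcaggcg

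Sp8, the ridge factor, has more RNAP2 peaks in its window than any other of the 10 genes, and no Med12 peak. Its 4 RNAP2 peaks are centred within 9.08 kb of the gene start at chr12:120084802. The largest runs over 5078 bp from 120078180 to 120083257, a width that 1.10% of the RNAP2 list reaches, with a score of 666, and ends 1545 bp before the start. Another upstream peak, from 120074867 to 120076579, has a score of 215. One with a score of 143 overlaps an exon of Sp8 in the distal part of the gene, 2762 bp from the nearest annotated start, and one with a score of 94.4 lies beyond the gene end. The starts themselves, at 120084802 and 120085664, fall in the gap of 5.17 kb between the wide peak and the exonic one. An interval of 2 kb in place of 1 kb, chosen after the peaks were seen, would count the wide peak as a peak at the start of Sp8. The nearest Med12 peak lies 151 kb away and has a score of 50.6. The sequences show the centre of the wide peak and the 250 bases before the second start, which hold 32 CpG and no peak.
Sp8, centre of the wide RNAP2 peak, chr12:120080569-120080868 (+ strand): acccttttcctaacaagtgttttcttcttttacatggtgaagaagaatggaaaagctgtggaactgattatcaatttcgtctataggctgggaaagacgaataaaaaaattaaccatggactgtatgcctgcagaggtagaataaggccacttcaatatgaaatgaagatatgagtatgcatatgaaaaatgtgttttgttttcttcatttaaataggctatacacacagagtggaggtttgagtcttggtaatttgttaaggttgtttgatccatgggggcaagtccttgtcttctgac
Sp8, 250 bases before the start at 120085664, chr12:120085414-120085663 (+ strand): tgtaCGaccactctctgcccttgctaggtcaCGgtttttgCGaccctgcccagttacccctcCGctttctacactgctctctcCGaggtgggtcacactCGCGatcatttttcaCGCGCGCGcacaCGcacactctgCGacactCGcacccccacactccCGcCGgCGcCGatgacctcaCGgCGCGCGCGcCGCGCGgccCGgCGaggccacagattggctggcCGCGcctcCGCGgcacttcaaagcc

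Krt5 and Krt14 pair to form the filaments of basal epithelial cells. Neither has an RNAP2 or a Med12 peak in its window, which is the case for 16.9% of coding genes. Krt5 (chr15:101537501-101543322, minus strand) lies 263 kb from the nearest RNAP2 peak and 360 kb from the nearest Med12 peak, distances that 11.4% and 12.8% of coding genes equal or exceed. Krt14 (chr11:100064476-100068862, minus strand) lies just outside the reach of both lists, with an RNAP2 peak of score 3100 at the start of Eif1, a translation factor gene, 111620 bp upstream, and a Med12 peak of score 47.6 at the start of Krt32, 117923 bp downstream. Both genes sit among other keratin genes in stretches without RNAP2. The stretch around Krt14 is free of RNAP2 peaks over 932 kb with 77 coding gene starts, 21 of them keratins, and that around Krt5 over 691 kb with 27 coding gene starts, 22 of them keratins. In the whole annotation, 0 of 50 coding keratin genes have RNAP2 at a start, and 1, Krt32, has Med12, a set that was counted after these values had been seen. The 250 bases before the start of Krt14 are shown as those of a basal keratin without a peak.
Krt14, 250 bases before the start, chr11:100068863-100069112 (- strand): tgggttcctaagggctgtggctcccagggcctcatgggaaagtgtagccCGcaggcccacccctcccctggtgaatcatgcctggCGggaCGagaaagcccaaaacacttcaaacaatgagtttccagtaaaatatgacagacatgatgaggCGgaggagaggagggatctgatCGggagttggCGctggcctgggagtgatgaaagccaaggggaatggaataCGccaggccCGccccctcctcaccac

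Krt8 and Krt18 lie at the edge of the chromosome 15 keratin cluster, at chr15:101827142-101834773 on the minus strand and chr15:101858647-101862457 on the plus strand, with starts 23.9 kb apart. Their windows share 3 RNAP2 and 2 Med12 peaks, none of which overlaps either gene. The strongest, an RNAP2 peak (score 995) overlapping a Med12 peak (score 102), sits at the start of the neighbouring gene Eif4b, which encodes a translation initiation factor. An RNAP2 peak with a score of 45.0 and a Med12 peak with a score of 90.5 lie in introns of Eif4b, apart from each other. The remaining one is an intergenic RNAP2 peak scored at 67.5, from 101806339 to 101808289, centred 27.5 kb downstream of the Krt8 start and 51.3 kb upstream of the Krt18 start. Since each of these peaks stands in both windows, the 2 genes are not independent counts of a distal peak. The sequence before the Krt18 start is shown as that of a start with 12 CpG in 250 bases and no RNAP2.
Krt18, 250 bases before the start, chr15:101858397-101858646 (+ strand): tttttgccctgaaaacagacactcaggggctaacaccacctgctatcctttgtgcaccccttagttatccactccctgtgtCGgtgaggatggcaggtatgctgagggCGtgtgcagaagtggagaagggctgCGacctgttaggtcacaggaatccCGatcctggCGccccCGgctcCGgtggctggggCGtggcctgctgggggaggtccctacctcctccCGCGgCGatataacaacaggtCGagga

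Cdh1 encodes E-cadherin, the adhesion molecule of epithelial junctions. The gene (chr8:109127251-109194146) has no peak over its span, and the nearest RNAP2 peak is 79.3 kb from its start. All peaks in its window lie at other genes. Cdh3, which encodes P-cadherin and lies directly upstream, has an RNAP2 peak of 2684 bp with a score of 1252 over its start. A Med12 peak with a score of 61.9 in an intron of Cdh3 overlaps the end of that RNAP2 peak and is distal by a small margin, 1226 bp from the Cdh3 start. An RNAP2 peak with a score of 171, which overlaps an exon of 6030452D12Rik, lies 2243 bp from the Cdh3 start on its other side. The window ends on the other flank with an RNAP2 peak of score 507 at the start of Tmco7. Between the Cdh3 and Tmco7 peaks, over 170 kb that include the whole of Cdh1, there is no RNAP2.

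Epcam, which encodes an adhesion molecule found on most simple epithelia, has the highest RNAP2 score of the 10 genes. An intergenic RNAP2 peak with a score of 1343, which 6.76% of the list reaches, runs from 88012283 to 88013734 on chromosome 17, and its edge lies 21585 bp upstream of the Epcam start (chr17:88035319-88050446). It ranks 1385 of 20479, and no annotated start is nearer to it than that of Epcam. A Med12 peak with a score of 73.8 lies within it, from 88012295 to 88013376, and 30.8% of the Med12 list scores as high. The next Med12 peak downstream of the Epcam site lies beyond a stretch of 1699 kb, with 11 coding gene starts in it, that has no Med12 peak. The centre of the overlap is shown as the site of the highest RNAP2 score, with 10 CpG and 1 SP/KLF match in capitals.
Epcam, centre of the RNAP2 and Med12 overlap, chr17:88012686-88012985 (+ strand): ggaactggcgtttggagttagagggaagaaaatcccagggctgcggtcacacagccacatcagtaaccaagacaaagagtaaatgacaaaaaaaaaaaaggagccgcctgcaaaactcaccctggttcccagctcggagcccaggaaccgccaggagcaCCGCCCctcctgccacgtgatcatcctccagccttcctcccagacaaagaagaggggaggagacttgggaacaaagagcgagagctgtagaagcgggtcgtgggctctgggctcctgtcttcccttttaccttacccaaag

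**Figure D2:**
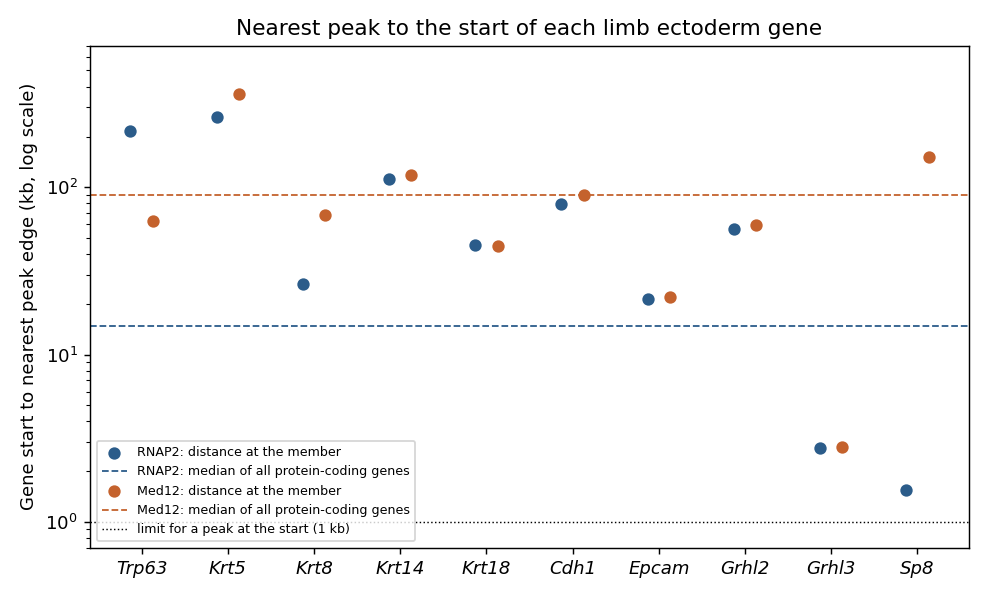
Distance from the start of each of the 10 genes to the nearest RNAP2 peak and the nearest Med12 peak, in kb on a log scale, beside the median (dashed) over all protein-coding genes. The RNAP2 distances run from 1.54 kb at Sp8 to 263 kb at Krt5, and the Med12 distances from 2.81 kb at Grhl3 to 360 kb at Krt5.

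Counted once each, 4 of the 15 RNAP2 peaks overlap a Med12 peak (26.7%, 95% Wilson interval 10.9 to 52.0), beside 21.7% of the whole list, and 4 of the 7 Med12 peaks overlap an RNAP2 peak (57.1%, 25.0 to 84.2), beside 42.7%. Distal peaks make up 11 of the 15 RNAP2 peaks (73.3%, 48.0 to 89.1), beside 52.2% of the list, and 6 of the 7 Med12 peaks (85.7%, 48.7 to 97.4), beside 80.6%. All 4 intervals include the share of the whole list, and they cover counting error alone. The 11 distal RNAP2 peaks have a median score of 171, beside 76.2 for all distal RNAP2 peaks, and the 6 distal Med12 peaks one of 67.9, beside 55.2. The median distance of the 10 gene starts to the nearest RNAP2 peak is 50.6 kb, where that of all coding genes is 14.8 kb. The median to the nearest Med12 peak is 65.6 kb, where that of all coding genes is 89.4 kb.

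The coding genes around them were counted as well. Within 100 kb of the 10 starts begin 25 other coding genes. Most of them are keratin genes, a family in which 0 of 50 have RNAP2 at a start. Of the 25 genes, 4 have RNAP2 at a start, among them Cdh3, Eif4b and Tmco7, beside 42.2% of all coding genes. None of the 4 is a keratin gene. Med12 is at the start of 1 (Eif4b), beside 9.37%. These 4 starts carry all 4 RNAP2 peaks of the windows that are not distal. Trp63, Grhl2 and Sp8 have no other coding gene start within 100 kb, and they hold 8 of the peaks described above.

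RNAP2 at starts was also counted for other genes of the epithelium. Over all coding genes, 42.2% have RNAP2 and 9.37% have Med12 at a start. Of 21 genes of adhesion and polarity, such as desmosome, claudin and protease genes, 3 have RNAP2 at a start (14.3%), namely Cdh3 (score 1252), Jup, which encodes plakoglobin (494), and the integrin gene Itga6 (61.4), and 0 have Med12. Of 15 other keratin and stratification genes, the cornified envelope gene Lor has both RNAP2 (507) and Med12 (41.9), and the other 14 have neither. Neither peak covers the Lor start itself, so that both counts are 0 when the start has to lie inside a peak. Among epithelial transcription and splicing factors, RNAP2 is at a start of 9 of 14 (64.3%). With a score of at least 100 it is at a start of 6, beside 35.6% of coding genes. Grhl1, the relative of Grhl2 and Grhl3, is among them (625). The highest scores are those of Klf4 (1587), Tfap2b (1220) and Tfap2a (826), and Med12 is found at the starts of Klf4 (48.7) and Tfap2a (41.9). These Med12 scores, like those of Lor and Sp9, are below 50, the score of the p-value threshold in the methods, at which 0 of the factor genes, 0 of the keratin and stratification genes and 1 of the 17 ridge and ectoderm genes have Med12 at a start. The start interval of Tfap2a also holds that of Gm16989, to which the peaks could belong. Of 17 genes for signals and factors of the apical ridge and limb ectoderm, 6 have RNAP2 at a start (35.3%) and 2 have Med12 (11.8%). Both are near the shares of all coding genes. The highest scores belong to Dlx6 (1111), Dlx2 (467) and Sp9 (440), and Med12 is found at Sp9 (49.5) and Fgf9 (97.5). The start of Dlx6 is shared with its antisense gene Dlx6os1. Fgf8 and Fgf4, the FGFs that define the ridge, have no RNAP2 peak at a start, nor does Wnt7a, the signal of the dorsal ectoderm. En1 (423), Dlx5 (273) and Fgf9 (95.2) of the same list do have RNAP2 at a start. Several factors of these lists, among them Tfap2a, Dlx5 and Dlx6, are known from the limb mesenchyme as well, so that their peaks do not tell which cells they come from.

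Genes of other cell types were counted in the same way, beside the 42.2% of all coding genes with RNAP2 and 9.37% with Med12 at a start. The lists also differ in the kind of gene. Most of the mesenchyme genes encode transcription factors, while the 10 ectoderm genes include keratin and adhesion genes. The part of this difference in the counts was not tested. Of 14 genes of the limb mesenchyme, 13 have RNAP2 at a start (92.9%), all but Twist2, and 6 have Med12 (42.9%), with a median of 5 distal RNAP2 peaks and 2.5 distal Med12 peaks per gene, where the 10 ectoderm genes have a median of 1 of each. Scores of RNAP2 reach 3100 at Msx1 and Hand2 and 2686 at Twist1, and the highest Med12 scores at starts are 272 at Hand2 and 220 at Prrx1, a homeobox gene of early limb mesenchyme. Hand2 and Msx1 rank 200 and 241 among genes with RNAP2 at a start, at the same score. A score of 3100 is also that at Eif1 and the highest of the Med12 list, while the RNAP2 list reaches 3217. Whether 3100 is a limit of the caller was not tested. The other lineages have fewer genes with a peak at a start. RNAP2 is at a start of 3 of 8 muscle genes (Pax3, Lbx1 and Pax7), 2 of 9 endothelial genes (Erg and Kdr) and 0 of 7 blood genes. It is at 0 of 12 genes of tissues outside the limb, and Med12 at a start is found in these 4 groups at Erg alone. At starts, then, the 10 ectoderm genes have the same count of 0 as the genes of blood and of tissues outside the limb. Over all coding genes, 40.7% have a distal RNAP2 peak and 34.9% a distal Med12 peak. At distal sites the counts are 7 of 10 with RNAP2 and 7 of 10 with Med12 for the ectoderm genes, 14 of 14 and 13 of 14 for mesenchyme, 5 of 9 and 5 of 9 for endothelium, 4 of 8 and 1 of 8 for muscle, 3 of 7 and 2 of 7 for blood, and 3 of 12 and 5 of 12 for tissues outside the limb. Among the epithelial lists they are 9 of 17 and 2 of 17 for ridge and ectoderm genes, 8 of 21 and 4 of 21 for adhesion and polarity, 6 of 14 and 5 of 14 for transcription and splicing factors, and 2 of 15 and 1 of 15 for the other keratin and stratification genes. In the counts of the 10 ectoderm genes, Krt8 and Krt18 share the same peaks. The distal peaks of Krt8, Krt18, Cdh1 and Trp63 also lie nearer to the start of another gene.

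**Figure D3:**
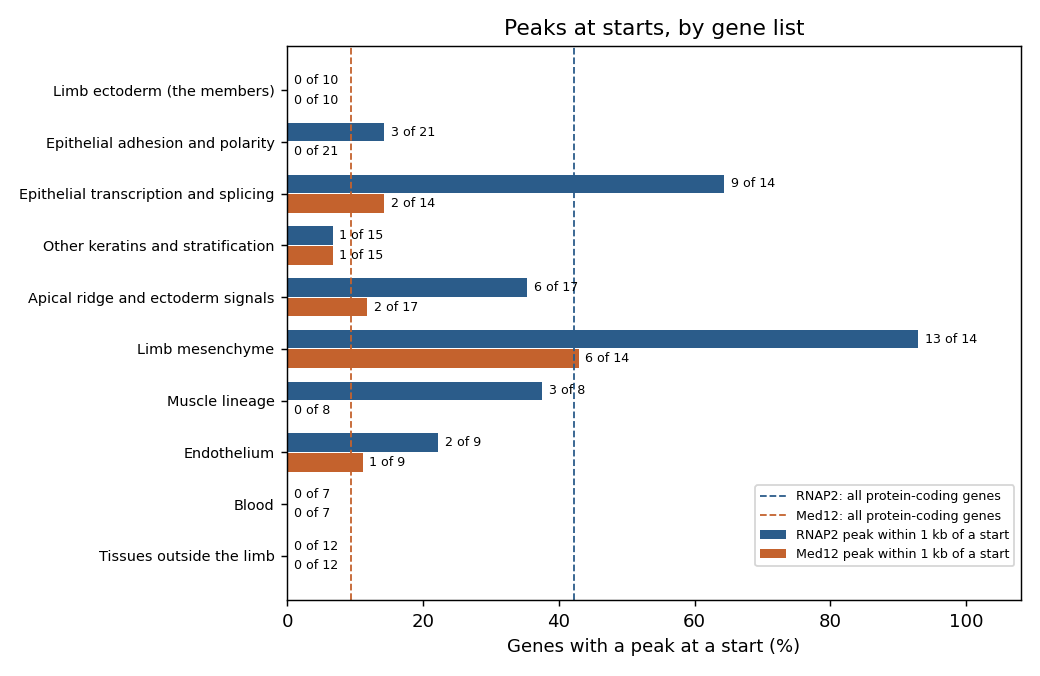
Share of genes in each list with an RNAP2 peak and with a Med12 peak at a start, in percent, with the numbers of genes. The 10 ectoderm genes stand at 0 for both, the mesenchyme genes at 92.9% and 42.9%, and all protein-coding genes at 42.2% and 9.37%.

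Base composition at the starts is a feature that the choice of genes did not use. The ratio of observed to expected CpG was taken over the 300 bases from 250 before to 50 after a start. RNAP2 follows this ratio over all genes, from 3.09% of gene starts with a ratio below 0.2 to 80.7% of those between 1.0 and 1.2. The median of the 10 gene starts is 0.401, where that of 22375 coding gene starts is 0.534, and 2 of the 10, Krt18 (0.603) and Grhl2 (0.664), reach 0.6, against 45.2% of coding genes. Cdh1 (0.599), Grhl3 (0.528) and Epcam (0.454) fall in the bin of 0.4 to 0.6, in which 34.9% of starts have RNAP2. Krt14 (0.348), Krt5 (0.253), Krt8 (0.238) and the upstream start of Trp63 (0.237) fall in that of 0.2 to 0.4, in which 11.5% do, and the internal start of Trp63 (0.0712) lies lower still. The starts of Sp8 stand far apart, with 0.157 at the first and 1.17 at the second, whose bin has RNAP2 at 80.7% of starts. The part of CpG content in the counts at these starts was not tested.

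**Figure D4:**
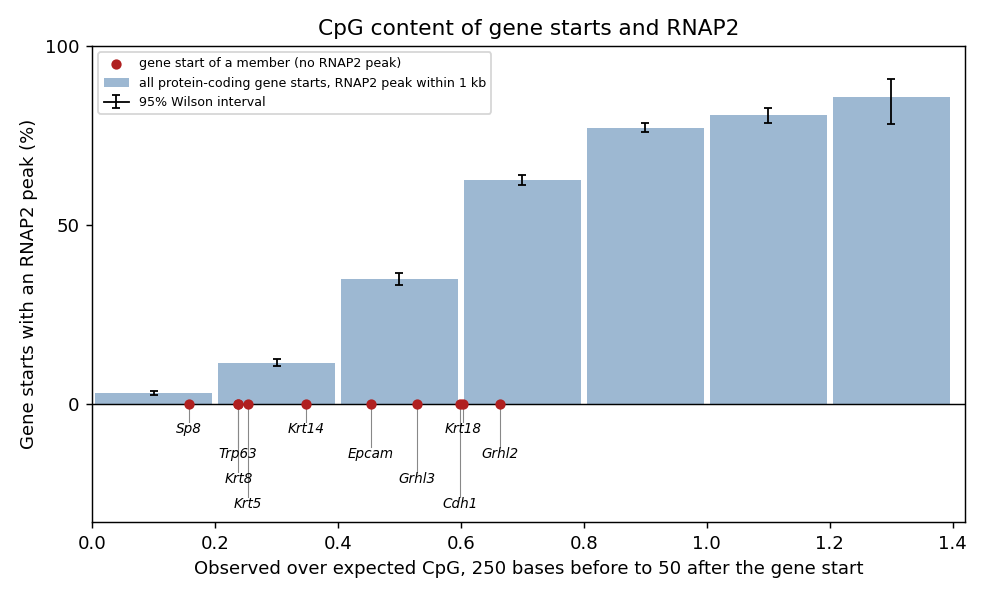
Share of protein-coding gene starts with an RNAP2 peak within 1 kb, in percent, by the ratio of observed to expected CpG in bins of 0.2, with 95% Wilson intervals, and the ratios of the 10 genes marked. The share rises from 3.09% to 85.7% across the bins up to 1.4, and most of the 10 genes lie in bins under 0.6.

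Motifs of epithelial factors were sought on both strands of the same 300 bases at starts and of the 300 bases at the centre of each distal peak. The grainyhead letters AACCGGTT and the letters ACATGT, a form of the core of the p63 half-site, were sought as exact letters. They occur in 0 of the 10 gene starts, 0 of the 11 distal RNAP2 centres and 0 of the 6 distal Med12 centres. Other forms of these motifs were not sought. AACCGGTT is rare, in 0.165% of all gene starts, 0.0935% of distal RNAP2 centres and 0.0817% of distal Med12 centres, while ACATGT is in 4.36%, 10.3% and 11.2%. The AP-2 letters GCCNNNGGC occur at 3 of the 10 starts (Krt18, Cdh1 and Grhl2), beside 18.3% of all starts, and at 1 distal RNAP2 centre, that 97.3 kb upstream of Grhl2, beside 7.21% of all distal RNAP2 centres. They occur in 0 of the 6 distal Med12 centres, beside 5.07%. The SP/KLF letters GGGCGG, which Sp8 and its relatives can bind, occur at 5 of the 10 starts (Krt14, Cdh1, Epcam, Grhl2 and Grhl3), beside 43.4%. Among distal centres they occur in 4 of 11 for RNAP2, beside 7.42%, and in 2 of 6 for Med12, beside 4.04%. The 4 RNAP2 centres are 2 at Sp8, 1 at Grhl2 and 1 at Grhl3, and the 2 Med12 centres are those of Epcam and Grhl3, so that Grhl3 is counted in both. These letters are rich in CpG, and the distal RNAP2 centres of the 10 genes have a median CpG ratio of 0.368 where all distal RNAP2 centres have 0.223, so the 2 measures are not independent. A match is a description of the sequence and not evidence of binding.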

How the data were processed

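ChIP-seq of distal forelimbs at E12.5 gave 1 library per antibody, and the input was not analysed here. Reads were cut by their first base and aligned to mm9 (Bowtie), duplicates were dropped, and the authors ran MACS 1.4.1 (bandwidth 250, enrichment range 7 to 30, p-value threshold 1e-05), with no control named among the settings. The deposited value of a peak is the caller's score, the −log10 of the p-value multiplied by 10. The deposited lists reach a score of 40, a p-value of 0.0001, below the stated threshold, and hold no read counts, so the depth behind a single peak is unknown. The series text gives an earlier stage than the labels, which were followed.

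Peaks were assigned to the genes of GENCODE vM1 on NCBIM37 (mm9) in Python 3.11.15 (numpy 2.4.6) where 1 bp or more was shared, which was tested on simulated lists. A peak is at a start when it reaches within 1 kb of any annotated start of the gene, and distances are taken from the edge of a peak unless its centre is named. Older symbols were matched through synonyms, and Flg, with several matches, was left out. Wilson intervals (95%) come from scipy 1.17.1 and figures from matplotlib 3.10.9. With 1 library per antibody, no test was made.

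The genes, lists and motifs were chosen with earlier results of these data known. The 10 genes are all named, with every start peak, each distal overlap and the highest distal peak of each list, and from other lists the genes with Med12 at a start and the 3 highest RNAP2 scores. The other peaks of the 10 windows, other genes named from the lists, the neighbours, the keratin family, the repeat measure (the best self-match at shifts of 6 to 100 bases) and the interval of 2 kb were chosen after the lists had been seen. Alternatives were scores of at least 50 and 100, start intervals of 2 kb and 5 kb, windows of 50 kb and 200 kb, starts of coding transcripts, a start inside a peak, an overlap of 50% of the shorter peak, and a gap of up to 500 bp. The result of 1 gene list (glia and melanoblasts) and that of 1 neighbouring gene are not reported here.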

Additional observations from a re-analysis of the deposited data

How the results depend on the processing

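The 8 counts of the 10 genes and their peaks were recomputed under the alternatives to which each applies, 46 values in all, of which 32 stayed within 1.5 times the reported count and 14 did not. The counts of 0 at starts stayed at 0 with scores of at least 50 or 100, with starts of coding transcripts alone and with the start itself inside a peak, and they moved with the width of the start interval. At 5 kb, RNAP2 is at the start of 2 genes (Grhl3 and Sp8), beside 45.3% of coding genes, Med12 at 1 (Grhl3), beside 12.6%, and a distal overlap is at 1 gene (Epcam), beside 10.3%. At 2 kb, chosen after the data were seen, RNAP2 is at 1 start, that of Sp8, beside 43.0%. With a score of at least 100, 4 genes have a distal RNAP2 peak (Cdh1, Epcam, Grhl2 and Sp8), 1 a distal Med12 peak (Grhl3) and 0 a distal overlap, beside 20.9%, 7.21% and 4.84% of coding genes, with 2 Med12 peaks in all and 1 overlapping RNAP2 peak. With a window of 50 kb, 4 genes have a distal RNAP2 peak (Krt8, Epcam, Grhl3 and Sp8) and 4 have a distal Med12 peak (Trp63, Epcam, Grhl2 and Grhl3), beside 27.2% and 21.8%, and the RNAP2 peaks number 9. With 200 kb there are 23 RNAP2 and 11 Med12 peaks. At that window 7 genes have a distal RNAP2 peak and 8 a distal Med12 peak, beside 60.3% and 54.6% of coding genes. The construction of each alternative (wider or narrower intervals, fewer peaks) sets these changes. Of 120 counts of the other lists, 23 moved. No paired analysis was possible because there is 1 library per antibody and no result comes from a test. The lists end at a score of 40, and what lies below it was not seen. The depth behind a peak is unknown.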
